A study of Homo sapiens with 6 samples.

Results

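RNA polymerase I and RNA polymerase III are the nuclear enzymes that make the untranslated RNAs of the protein-synthesis apparatus. The genes described here are the 36 that encode polymerase I, polymerase III and the factors that bring these enzymes to their genes. They were chosen by name, as rows of the deposited gene table whose symbol equals a member, and not by a cut-off on any measured value. Earlier results of these data were known when they were chosen. All 36 were found, among 48114 rows. They comprise 13 polymerase I members (6 subunits of its own and 7 factors), 2 subunits shared by both enzymes, and 21 polymerase III members (10 subunits of its own, the repressor MAF1, 3 genes of TFIIIB, 1 of TFIIIA and 6 of TFIIIC). RNA sequencing was done on TC-71, an established human Ewing sarcoma line that carries the genotype label WT. One group of 3 libraries came from cells given BEZ235, an inhibitor of the kinases PI3K and mTOR, dissolved in DMSO, and the other group of 3 from cells given DMSO alone, both for 16 h. The labels call the 3 samples of a group biological replicates and name no dose. All results therefore concern 1 cell line and 1 time.

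Polymerase I transcribes a single kind of gene, the repeated ribosomal DNA in the nucleolus, into the precursor of the large ribosomal RNAs. Polymerase III makes the transfer RNAs, 5S ribosomal RNA and a few other short RNAs such as U6 and 7SK. Both enzymes use much of a growing cell's capacity for RNA synthesis, and mTOR signalling is known to stimulate both, in part through the polymerase I factor RRN3 and by keeping the polymerase III repressor MAF1 inactive through phosphorylation. The transcript levels measured here report neither the activity nor the phosphorylation of these proteins.

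The libraries held 184790722 to 233767211 reads each. Libraries of 1 group differed from each other by more than sampling noise, with a median chi-square per gene of 2.46 to 8.33, so none was counted as a copy of another. DMSO replicate 1 stood apart in the RNAs that the polymerases make: its ribosomal RNA rows took 10.8% of normalized counts, against 7.10% and 7.11% in the other DMSO libraries and 5.67 to 7.40% with BEZ235, and RN7SK, RN7SL1, RN7SL2, RPPH1 and RMRP were several times higher in it than in any other library. Mitochondrial rows took 0.507 to 0.706% with BEZ235 and 2.82 to 3.55% with DMSO, and the part of this difference in the results was not tested. The 8 Ewing sarcoma markers CD99, NKX2-2, NR0B1, STEAP1, PRKCB, EWSR1, FLI1 and PAPPA were all expressed, from a group mean of 2190 to 263162 normalized counts. Among markers of other cells, CD3E and KRT5 were at 0 in all 6 libraries, and at this depth a 0 allows up to 3 reads, or 2.50 to 3.47 normalized counts. The leukocyte markers PTPRC and CD14 and the endothelial markers PECAM1, CDH5 and VWF were too low to be tested. The leukocyte markers PTPRC, CD3E and CD14 summed to 10.8 to 31.0 normalized counts with DMSO and 5.79 to 8.15 with BEZ235, and endothelial markers to 0.830 to 18.4 with DMSO and 8.11 to 13.8 with BEZ235. Of 4 epithelial markers EPCAM rose, KRT8 fell and KRT18 did not pass, with sums of 1608 to 1704 with DMSO and 1074 to 1272 with BEZ235. Of 4 fibroblast markers COL3A1 and DCN rose and COL1A1 and LUM fell, with sums of 30143 to 31223 with DMSO and 33541 to 35928 with BEZ235, and their part in the results was not tested.

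More of the machinery was higher than lower after BEZ235. Of the 36 members, 21 rose, 5 fell and 10 did not pass the test, which was limma on log2(normalized count + 1) with the adjusted p taken over all 23923 genes tested and a threshold of 0.05. BEZ235 moved a large part of the transcriptome: 66.3% of all tested genes passed, 33.1% higher and 33.2% lower. These shares are the background for the counts of every smaller list below. The 72.2% of members that passed is thus near the background, while members split 58.3% higher to 13.9% lower, where all genes split about evenly. The median log2 change of the members was 0.24, against -0.00085 over all tested genes. At least 2-fold changes were made by 8 members, 6 up (UBTF, POLR1D, POLR1E, POLR3B, GTF3C3 and POLR3C) and 2 down (POLR3G and POLR3K), where 26.3% of all tested genes changed that much. The BEZ235 libraries lay wholly above the DMSO libraries for 24 members and wholly below for 5, where 35.5% and 35.4% of all tested genes, or 70.9% in both directions, had no overlap. Bulk libraries cannot tell a change in the amount of a transcript per cell from a change in the share of cells that carry it. Without DMSO replicate 1 the counts were again 21 up and 5 down, and with scaling to equal totals they were 18 up and 5 down.

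In both polymerase I and polymerase III most members that passed were higher after BEZ235. Of the 13 polymerase I members, 7 rose and 2 fell, with a median log2 change of 0.33. Of the 21 polymerase III members, 12 rose and 3 fell, with a median of 0.19. The shares that passed, 69.2% and 71.4%, were near the 66.3% of all tested genes, of which 33.1% rose and 33.2% fell. The median of the polymerase I members is the value of TAF1D, whose DMSO libraries were spread out, and it was 0.21 without DMSO replicate 2 and 0.46 without DMSO replicate 1. The polymerase III median was 0.090 when the libraries were scaled to equal totals, which lowered the median of all genes to -0.097. The difference between the enzymes was not tested, since members are not replicates. Falls of at least 2-fold were made by 2 of the 21 polymerase III members, both subunits, and by 0 of the 13 polymerase I members. Among all tested genes 13.6% fell that much, so these small counts do not set the enzymes apart. The fallen polymerase I members POLR1F and TAF1A fell by less than 2-fold.

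**Figure D1:**
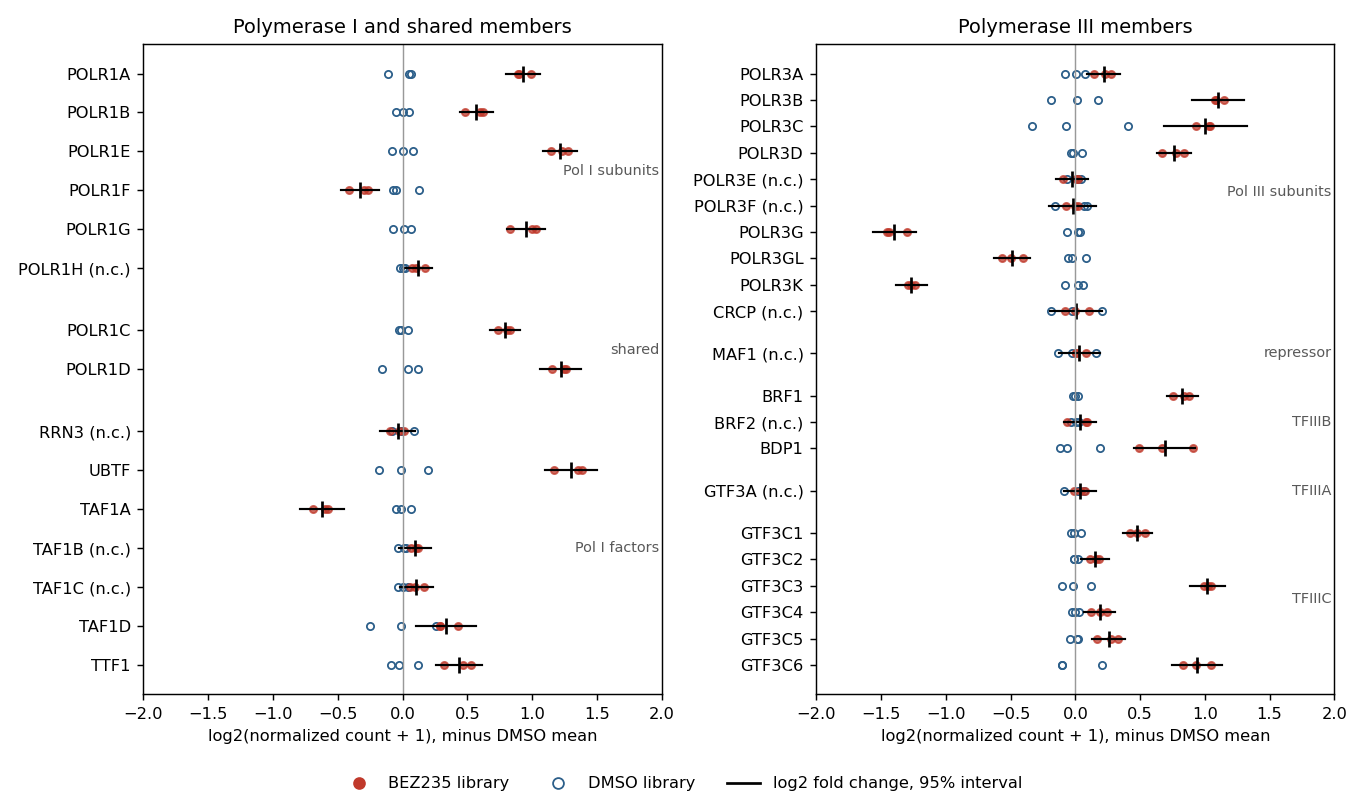
Each member's normalized counts on the log2(value + 1) scale, with the mean of its 3 DMSO libraries set to 0. Filled points are BEZ235 libraries, open points DMSO libraries, and the black bar is the log2 fold change with its 95% interval from limma; n.c. marks the 10 members that did not pass the test. The left panel holds the 15 polymerase I and shared members and the right panel the 21 polymerase III members, where POLR3G and POLR3K lie furthest to the left.

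The DNA from which members that rose and members that fell are transcribed was compared. RefSeq promoters (GRCh38.p14, 250 bases before to 50 after each start) were matched for 30 members, 42 promoters in all, as some genes have several starts. None was matched for POLR1E, POLR3D, POLR3G, CRCP, MAF1 and BRF2. Both strands were searched for the E-box CACGTG, the ETS core CCGGAA and the NRF1 motif TGCGCA, which stand in capitals below. Of the promoters shown, those of members that rose are POLR1C at chr6:43516839-43517138 (plus strand), POLR1G at chr19:45406394-45406693 (plus strand) and GTF3C6 at chr6:110958456-110958755 (plus strand). POLR3GL at chr1:145964440-145964739 (plus strand) and POLR3K at chr16:53559-53858 (minus strand) belong to members that fell.
POLR1C: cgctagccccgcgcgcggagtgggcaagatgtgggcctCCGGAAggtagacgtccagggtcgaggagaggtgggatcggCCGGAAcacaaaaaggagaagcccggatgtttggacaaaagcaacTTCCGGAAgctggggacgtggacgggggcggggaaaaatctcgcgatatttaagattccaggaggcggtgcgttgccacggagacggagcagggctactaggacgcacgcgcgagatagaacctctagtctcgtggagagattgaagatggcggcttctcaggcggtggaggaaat
POLR1G: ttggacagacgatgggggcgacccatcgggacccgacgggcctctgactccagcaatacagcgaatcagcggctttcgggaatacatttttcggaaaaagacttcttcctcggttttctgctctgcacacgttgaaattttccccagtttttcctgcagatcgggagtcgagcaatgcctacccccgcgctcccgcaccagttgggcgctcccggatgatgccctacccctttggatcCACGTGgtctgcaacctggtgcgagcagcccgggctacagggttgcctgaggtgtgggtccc
GTF3C6: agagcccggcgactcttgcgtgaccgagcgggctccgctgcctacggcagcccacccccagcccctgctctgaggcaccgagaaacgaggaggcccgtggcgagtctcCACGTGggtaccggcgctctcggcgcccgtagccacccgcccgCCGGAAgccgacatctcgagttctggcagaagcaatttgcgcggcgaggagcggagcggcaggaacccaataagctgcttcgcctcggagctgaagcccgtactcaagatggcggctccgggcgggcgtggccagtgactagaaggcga
POLR3GL: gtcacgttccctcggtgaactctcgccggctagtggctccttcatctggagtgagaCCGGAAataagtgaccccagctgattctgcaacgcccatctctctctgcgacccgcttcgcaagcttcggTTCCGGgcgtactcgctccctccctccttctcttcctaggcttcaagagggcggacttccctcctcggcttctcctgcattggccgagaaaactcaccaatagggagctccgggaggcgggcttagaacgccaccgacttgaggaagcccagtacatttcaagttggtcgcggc
POLR3K: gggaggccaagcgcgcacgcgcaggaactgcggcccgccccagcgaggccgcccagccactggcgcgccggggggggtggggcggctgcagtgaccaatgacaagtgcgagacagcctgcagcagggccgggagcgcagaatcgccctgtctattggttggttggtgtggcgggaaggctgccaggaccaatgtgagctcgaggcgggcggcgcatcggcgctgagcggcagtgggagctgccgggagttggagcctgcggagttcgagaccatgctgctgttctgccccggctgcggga
POLR1C holds 4 ETS cores, which start 212, 171, 126 and 124 bases before the start site, and the last 2 of these overlap on opposite strands. POLR1G holds 1 E-box, 12 bases before the start, and GTF3C6 holds 1 E-box 142 bases and 1 ETS core 99 bases before it. POLR3GL holds 2 ETS cores, 194 and 124 bases before the start, and POLR3K holds none of the 3 motifs. An ETS core was found in 21 of the 42 member promoters, against 23.6% of the 19754 promoters of tested genes and 17.2% of all 35116 promoters in the table. By gene this was 18 of 30 members, for which the shares per promoter are not a background, and no share per gene was computed. The promoters matched for RRN3 overlap each other and share an ETS core, and those for TAF1B do likewise, so some sites were counted again. An E-box was found in 7 (16.7%, against 8.83% and 7.26%) and the NRF1 motif in 4 (9.52%, against 11.0% and 8.24%). ETS cores occurred in 13 of 29 promoters of members that rose, 2 of 4 of members that fell and 6 of 9 of members that did not pass the test, and so were present on all sides of the test. E-boxes occurred in 6 of 29, 0 of 4 and 1 of 9. The promoters shown are examples and do not tie a motif to a direction. Those matched for UBTF, POLR1D and POLR1A, which also rose, hold none of the 3 motifs. The ETS family includes FLI1, part of which is joined to EWSR1 in the fusion protein of Ewing sarcoma. A match describes letters only; binding was not measured.

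The subunits that belong to polymerase I alone mostly rose: 4 of 6 were higher, 1 was lower and 1 did not pass, with a median log2 change of 0.75. Over all tested genes 33.1% rose and 33.2% fell. POLR1A, the largest subunit and the one that carries most of the catalytic centre, stood at 8404, 9514 and 9389.9 normalized counts in DMSO replicates 1 to 3 and at 16979.7, 18108 and 16876 in BEZ235 replicates 1 to 3. The groups were far apart, and the log2 change was 0.93 (SE 0.061, adjusted p = 1.88e-07), a 1.90-fold rise. POLR1B, the other large catalytic subunit, had 5967, 6403 and 6211 with DMSO and 9368, 9536 and 8649 with BEZ235. It too was higher in every treated library, with a log2 change of 0.57 (SE 0.057, adjusted p = 5.83e-06), with a group mean of 6194 ± 219 rising to 9184 ± 471 (SD, n = 3).

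POLR1E and POLR1G form a pair that sits on the side of polymerase I and helps it to start and to elongate, much as the factor TFIIF does for polymerase II. POLR1E had the largest rise among the subunits that polymerase I alone has, from 11309.8, 10628 and 11876 with DMSO to 26357, 27284 and 24861 with BEZ235, a log2 change of 1.22 (SE 0.058, adjusted p = 1.93e-08). Each treated library was more than 2-fold above each control. POLR1G had 8904, 8375 and 9247 with DMSO and 18032, 17674 and 15692 with BEZ235. Its log2 change was 0.95 (SE 0.065, adjusted p = 2.59e-07), again with no overlap. The POLR1G row overlaps that of ERCC1, a DNA repair gene that averaged 6526 in DMSO and 11504 in BEZ235, and because the sources used here do not state how reads were counted, those in the shared stretch may belong to either.

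The remaining polymerase I subunits did not follow. POLR1F, the stalk subunit through which RRN3 meets the enzyme, fell: its libraries held 8819, 9947 and 8672 with DMSO and 7413, 7587 and 6848 with BEZ235. The log2 change was -0.33 (SE 0.067, adjusted p = 0.0012), and no treated library reached the lowest control. POLR1H, the small subunit needed for cleavage of the nascent RNA, held 22563, 22244 and 21866 with DMSO and 23937, 25073 and 23410.5 with BEZ235. Its treated libraries were all above its controls, with a log2 change of 0.12, a 95% interval of 0.011 to 0.23, and the adjusted p of 0.0515 lay just outside the threshold.

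POLR1C and POLR1D, the pair of subunits that polymerases I and III have in common and that seeds the assembly of both, rose. POLR1D had 27595, 22748 and 26117 with DMSO and 60894, 60333 and 56378 with BEZ235. It rose 2.33-fold, a log2 change of 1.22 (SE 0.072, adjusted p = 8.55e-08), and every treated library was more than 2-fold above every control. POLR1C had 4442, 4499.6 and 4655 with DMSO and 8049, 7925 and 7556 with BEZ235. Its libraries varied little within a group, and the log2 change was 0.79 (SE 0.053, adjusted p = 2.28e-07). The POLR1C row overlaps XPO5, which averaged 22305 in DMSO and 16125 in BEZ235 and so went the other way.

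Of the 7 polymerase I factors, 3 rose, 1 fell and 3 did not pass the test, with a median log2 change of 0.10, or 0.0085 with scaling to equal totals. UBTF, which coats the ribosomal DNA and keeps its active repeats open, had the largest rise of all 36 members. It stood at 7661, 9940.2 and 8593 with DMSO and 22142, 22621 and 19535 with BEZ235, so that even the lowest treated library was far above the highest control. The log2 change was 1.30 (SE 0.090, adjusted p = 3.05e-07), or 2.46-fold. RRN3, which links the enzyme to the promoter and is the factor through which growth signals are best known to reach polymerase I, had 5331, 5987 and 5593 with DMSO and 5528, 5674 and 5263 with BEZ235. The groups overlapped, and the log2 change of -0.038 (95% interval -0.17 to 0.097, adjusted p = 0.603) did not pass. RRN3 has closely related pseudogene copies and its row lies within that of PDXDC1, so its counts are uncertain.

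TAF1A, TAF1B, TAF1C and TAF1D are the subunits that, with the TATA-binding protein, make up SL1, the complex that recognises the ribosomal DNA promoter. TAF1A fell, from 1506, 1546 and 1637 with DMSO to 1048, 1031 and 968 with BEZ235. This was a log2 change of -0.62 (SE 0.075, adjusted p = 2.55e-05) with no overlap, the largest fall among polymerase I members. TAF1B and TAF1C did not pass, with log2 changes of 0.095 (adjusted p = 0.159) and 0.10 (adjusted p = 0.133), although in both the 3 treated libraries were above the 3 controls. TAF1D had 17722, 12488 and 14732 with DMSO and 19897, 18136 and 18117 with BEZ235. DMSO replicate 1 came close to the treated libraries, and the log2 change of 0.33 (SE 0.10, adjusted p = 0.0149) was 0.21 without DMSO replicate 2, missed the threshold without BEZ235 replicate 1 (adjusted p = 0.0555) and missed it in limma without the trend (adjusted p = 0.0890). TTF1, which binds the end of the ribosomal DNA unit and stops transcription there, rose from 1973 ± 153 to 2671 ± 192 (SD, n = 3), a log2 change of 0.44 (SE 0.080, adjusted p = 0.000547).

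The 10 subunits that belong to polymerase III alone were divided: 4 rose, 3 fell and 3 did not pass, with a median log2 change of -0.0067 that ranged from -0.10 to 0.067 over the alternatives. POLR3A, the largest subunit, had 11114, 12377 and 11835 with DMSO and 13802, 14265 and 13004 with BEZ235. The treated libraries were above the controls by a small margin, a log2 change of 0.22 (SE 0.058, adjusted p = 0.00672), and with scaling to equal totals the change was 0.12 and did not pass (adjusted p = 0.146). POLR3B, with which POLR3A forms the catalytic centre, had 1201, 1546 and 1379 with DMSO and 3026, 2908 and 2882 with BEZ235. It rose 2.15-fold, a log2 change of 1.10 (SE 0.089, adjusted p = 1.03e-06), and the treated libraries were closer together than the controls.

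The 2 catalytic subunits of each enzyme can be set side by side by their log2 changes. In polymerase I the larger, POLR1A, rose by 0.93 and the smaller, POLR1B, by 0.57. In polymerase III the larger, POLR3A, rose by 0.22 and the smaller, POLR3B, by 1.10. Per kilobase of exon, which allows only roughly for gene length, POLR3A stood at 1582 ± 85.1 normalized counts per kb with DMSO and POLR3B at 312 ± 39.1 (SD, n = 3). After BEZ235 these levels were 1839 ± 85.7 and 666 ± 17.4, so POLR3B remained the lower of the pair.

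POLR3C, POLR3F and either POLR3G or POLR3GL form a 3-part subcomplex that polymerase III needs to start transcription. POLR3C had 3466, 5807 and 4149 with DMSO and 8959, 8999 and 8356 with BEZ235. DMSO replicate 2 was well above the other controls but below each treated library, and the log2 change was 1.004 (SE 0.14, adjusted p = 9.47e-05), with the largest standard error of any member. POLR3F did not pass, at 1773, 1798 and 1519 with DMSO, 1712, 1686 and 1607 with BEZ235 and a log2 change of -0.021 (adjusted p = 0.836). Its row overlaps RBBP9, which averaged 3395 in DMSO and 5779 in BEZ235, and DZANK1, which averaged 345 in DMSO and 775 in BEZ235.

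POLR3G and POLR3GL encode alternative forms of the same subunit, of which POLR3G is the one known from stem cells and tumour cells and POLR3GL the one found in most tissues. POLR3G had the largest fall of all 36 members, from 2681, 2705 and 2527 with DMSO to 1074, 963 and 971 with BEZ235. Each treated library was more than 2-fold below each control, and the log2 change was -1.40 (SE 0.073, adjusted p = 3.76e-08), 2.63-fold lower. POLR3GL fell less, from 5216, 5744 and 5315 with DMSO to 4101, 3836 and 3663 with BEZ235, a log2 change of -0.49 (SE 0.064, adjusted p = 4.55e-05), also without overlap. The POLR3G row overlaps that of MBLAC2, which averaged 2528 in DMSO and 3047 in BEZ235, and the POLR3GL row lies within that of NOTCH2NLA, which averaged 2759.6 in DMSO and 2509.9 in BEZ235.

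The balance between the 2 forms shifted. The log2 ratio of POLR3G to POLR3GL was -0.96, -1.09 and -1.07 in the DMSO libraries and -1.93, -1.99 and -1.91 in the BEZ235 libraries. The means of -1.04 ± 0.069 and -1.95 ± 0.042 (SD, n = 3) differed by -0.91, and an exact two-sided permutation test gave p = 0.1, the smallest that 3 libraries against 3 allow. Corrected for exon length, POLR3G made up 13.4 to 14.4% of the summed level of both forms with DMSO and 7.60 to 8.001% with BEZ235. POLR3GL was thus the more abundant form in every library, treated or not.

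POLR3D and POLR3E form the polymerase III counterpart of the POLR1E and POLR1G pair. POLR3D rose, from 5635 ± 172 to 9557 ± 562 (SD, n = 3), a log2 change of 0.76 (SE 0.058, adjusted p = 6.65e-07). POLR3E did not pass, at 8714 ± 343 and 8569 ± 349, a log2 change of -0.024 with a 95% interval of -0.15 to 0.098 (adjusted p = 0.715). In polymerase I both partners rose and in polymerase III 1 of 2 did.

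POLR3K, the small subunit that polymerase III uses to cleave its RNA and to terminate, fell from 12100.5, 13296 and 12966 with DMSO to 5231, 5292 and 5421 with BEZ235. The libraries of each group were close together and the groups far apart, with a log2 change of -1.27 (SE 0.054, adjusted p = 8.08e-09), 2.404-fold lower. POLR3K and its polymerase I counterpart POLR1H are related in sequence and role, and POLR1H did not fall. The POLR3K row overlaps SNRNP25, its neighbour on chromosome 16, which averaged 5587 in DMSO and 7097 in BEZ235. CRCP, a stalk subunit, had 7109, 9321 and 7957 with DMSO and 8714, 8049.8 and 7631 with BEZ235, and its log2 change of 0.0072 (95% interval -0.19 to 0.21, adjusted p = 0.949) did not pass.

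MAF1, the repressor that binds polymerase III when mTOR signalling is low, had 9909, 12142 and 10695 with DMSO and 10913, 11535 and 10896 with BEZ235. All 3 treated libraries lay inside the range of the controls. The log2 change was 0.031 with a 95% interval of -0.13 to 0.19 (adjusted p = 0.722).

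**Figure D2:**
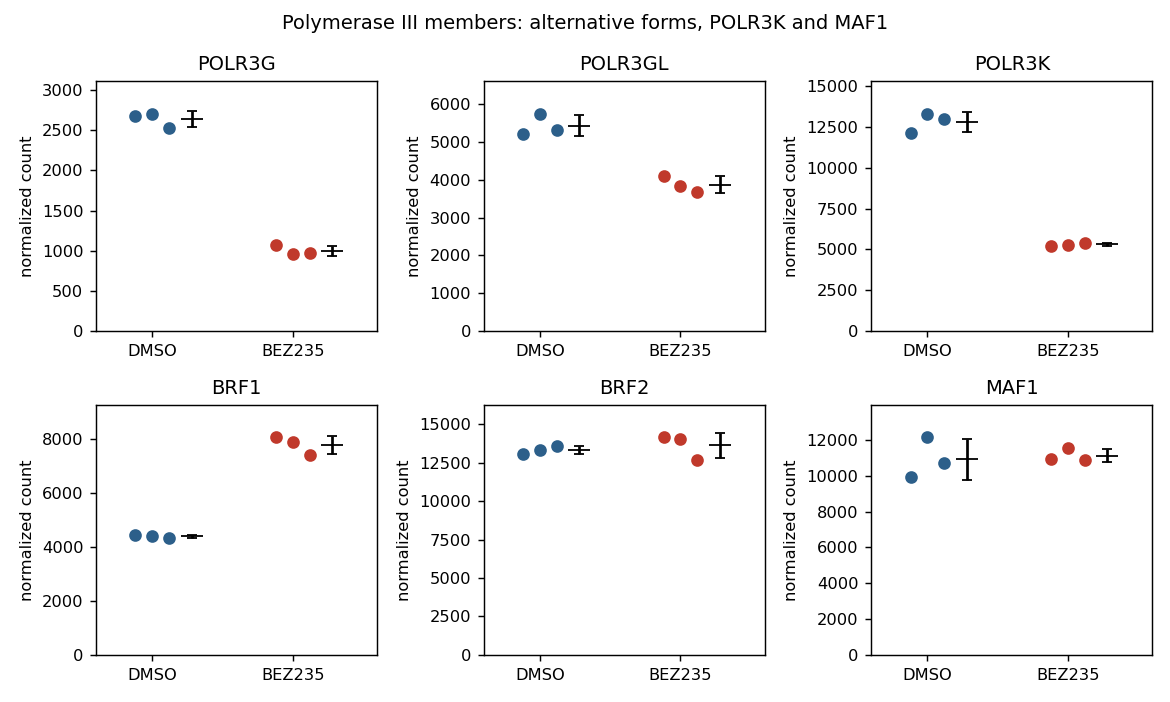
Normalized counts of 6 polymerase III members in each DMSO (blue) and BEZ235 (red) library, with the mean and SD of each group (n = 3) in black and every vertical axis starting at 0. POLR3G, POLR3GL and POLR3K are lower in all 3 treated libraries, BRF1 is higher in all 3, and BRF2 and MAF1 overlap between groups.

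TFIIIB places polymerase III at the start of its genes. It contains the TATA-binding protein, BDP1 and either BRF1, at transfer RNA and 5S genes, or BRF2, at genes such as those of U6 and 7SK. BRF1 had 4444, 4385 and 4336 with DMSO and 8050.3, 7868 and 7396 with BEZ235. It rose by 0.82 on the log2 scale (SE 0.054, adjusted p = 1.95e-07) and the groups were far apart. BRF2 had 13041, 13338 and 13571 with DMSO and 14156, 14076 and 12711 with BEZ235, which overlapped, with a log2 change of 0.034 (95% interval -0.090 to 0.16, adjusted p = 0.611). BDP1 had 5213, 4206 and 4365 with DMSO and 6445, 7256 and 8576 with BEZ235. Its treated libraries were spread out yet all above the controls, and the log2 change was 0.69 (SE 0.11, adjusted p = 0.000161).

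The log2 ratio of BRF1 to BRF2, computed after the values of both were seen, was -1.60 ± 0.047 with DMSO and -0.81 ± 0.029 with BEZ235 (SD, n = 3). The difference was 0.79, and the exact two-sided permutation test gave p = 0.1, again the smallest possible. Per kilobase of exon, BRF1 made up 12.9 to 13.6% of the summed level of the 2 genes with DMSO and 20.6 to 21.2% with BEZ235. BRF1 overlaps BTBD6, which averaged 4451 in DMSO and 8312 in BEZ235, and PACS2, which averaged 11221 in DMSO and 11148 in BEZ235, and BRF2 overlaps ADGRA2, which averaged 26262 in DMSO and 31292 in BEZ235.

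GTF3A, the single protein of TFIIIA, binds inside the 5S ribosomal RNA gene. It had 16182, 18042 and 17401 with DMSO and 17699, 18146 and 17079 with BEZ235. The ranges overlapped almost wholly, and the log2 change was 0.037 (95% interval -0.086 to 0.16, adjusted p = 0.575).

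TFIIIC recognises the promoter elements that lie within transfer RNA genes and then recruits TFIIIB. All 6 of its genes rose, where 33.1% of all tested genes did, with a median log2 change of 0.37. GTF3C3 had 16435, 14029 and 14946 with DMSO and 30689, 31164 and 29999 with BEZ235, a log2 change of 1.02 (SE 0.061, adjusted p = 1.04e-07). GTF3C6, the smallest subunit, rose by 0.94 on the log2 scale (SE 0.087, adjusted p = 3.09e-06), and GTF3C1, the largest and the one that contacts the inner promoter element, by 0.48 (SE 0.051, adjusted p = 9.67e-06). These 3 were the largest rises in the complex. On the same scale GTF3C5 rose by 0.26 (SE 0.056, adjusted p = 0.002), which was 0.16 with scaling to equal totals. GTF3C2 rose by 0.15 (SE 0.047, adjusted p = 0.0154), and GTF3C4 rose by 0.19 (SE 0.055, adjusted p = 0.0114). The last 2 calls were the least secure: both missed the threshold with scaling to equal totals (changes of 0.055 and 0.090, adjusted p = 0.398 and 0.18), without BEZ235 replicate 2 (0.0641 and 0.0569) and without DMSO replicate 3 (0.0647 and 0.0534), which left 4 of 6 genes called. GTF3C2 missed it also without BEZ235 replicate 1 (adjusted p = 0.0551). The GTF3C4 row overlaps DDX31, which averaged 1285 in DMSO and 3469.6 in BEZ235, and the GTF3C2 row overlaps its antisense gene, which averaged 3644 in DMSO and 3803 in BEZ235.

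Levels across the machinery, compared per kilobase of exon, spanned more than an order of magnitude. The lengths merge the annotated exons of a gene, used in these cells or not, so ranks between genes are approximate. The highest with DMSO was POLR1H at 25723 ± 404 normalized counts per kb, followed by GTF3A at 12443 ± 683 and GTF3C6 at 12208 ± 1577 (SD, n = 3), and the last 2 did not differ beyond their spread. At the other end stood POLR3B at 312 ± 39.1 and BDP1 at 415 ± 48.9. After BEZ235 the lowest was POLR3G, at 282 ± 17.4, below the polymerase I factor TAF1A at 445 ± 18.6. POLR3K moved from 9187 ± 444 to 3818 ± 69.5 and its level with BEZ235 was then close to that of UBTF, at 3666 ± 284. The subunits of an enzyme thus did not share one transcript level in either group.

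**Figure D3:**
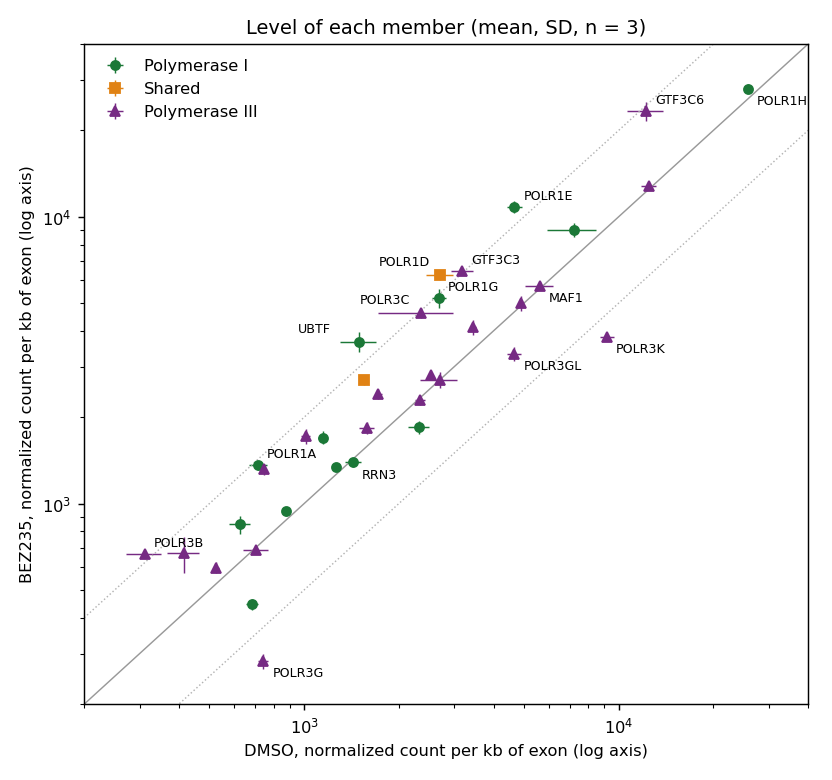
Mean normalized count per kb of exon of each member with DMSO (horizontal) and BEZ235 (vertical), both on log axes, with bars of 1 SD (n = 3). The solid line marks equal levels and the dotted lines 2-fold differences; POLR3G and POLR3K lie below the lower dotted line and UBTF, POLR1D, POLR1E, POLR3B and, just past it, GTF3C3 above the upper one.

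Neighbouring members did not always move together. POLR3C at chr1:145824176-145844402 and POLR3GL at chr1:145964690-145978848 (hg38) lie close to each other on chromosome 1, within the same long NOTCH2NLA row, and went in opposite directions, with log2 changes of 1.004 and -0.49. GTF3A at chr13:27424478-27435823 and POLR1D at chr13:27620743-27667411 lie near each other on chromosome 13, and their log2 changes were 0.037 and 1.22. TTF1, GTF3C4 and GTF3C5 lie on 1 stretch of chromosome 9 and all 3 rose, with log2 changes of 0.44, 0.19 and 0.26.

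Subunits that polymerases I, II and III all contain gave no single direction. Of 5 genes, 3 rose and 2 fell, led by POLR2L at a log2 change of 0.57 (SE 0.049, adjusted p = 1.7e-06) and POLR2F at 0.37 (SE 0.053, adjusted p = 8.4e-05) on the way up and by POLR2K at -1.02 (SE 0.048, adjusted p = 1.84e-08) and POLR2E at -0.25 (SE 0.061, adjusted p = 0.00388) on the way down. POLR2K, a small zinc-binding subunit, fell from 22236, 20930.0 and 20944 with DMSO to 10549.6, 10613 and 10518 with BEZ235, with no overlap. Of 7 subunits that only polymerase II has, 2 rose (log2 changes of 0.24 for POLR2I and 0.18 for POLR2C), 2 fell and 3 did not pass. POLR2A, the largest subunit of polymerase II, fell from 31464, 29645 and 31112 with DMSO to 16713, 19299 and 17317, a log2 change of -0.79 (SE 0.061, adjusted p = 6.93e-07), where POLR1A and POLR3A rose. POLR2J fell, with a log2 change of -0.31 (SE 0.051, adjusted p = 0.000276). With scaling to equal totals 0 of these 7 rose and 4 fell.

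The TATA-binding protein is used by SL1, TFIIIB and the polymerase II apparatus, and the SNAPc complex opens the way for BRF2-type promoters. Together with POU2F1 and ZNF143, separate activators of such promoters, they made up a list of 8 genes, of which 3 rose, 3 fell and 2 did not pass. TBP fell from 4186, 4473 and 4341 with DMSO to 3571, 3637 and 3582, a log2 change of -0.27 (SE 0.055, adjusted p = 0.00123). ZNF143 had 4803, 3621 and 4503 with DMSO and 1777, 1700.0 and 1625 with BEZ235, a log2 change of -1.33 (SE 0.097, adjusted p = 4.42e-07). SNAPC4, the largest SNAPc subunit, rose by 0.68 on the log2 scale (SE 0.058, adjusted p = 1.41e-06), and POU2F1, which binds the distal element, by 0.89 (SE 0.099, adjusted p = 1.22e-05). The DNA-binding proteins of this promoter type therefore went both ways.

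Among 16 regulators of ribosomal DNA chromatin and ribosomal RNA synthesis, 8 rose, 3 fell and 5 did not pass, with a median log2 change of 0.15. The 68.8% that passed was near the 66.3% of all tested genes, of which 33.1% rose and 33.2% fell. NPM1, an abundant nucleolar chaperone, rose by 1.13 on the log2 scale (SE 0.069, adjusted p = 1.22e-07), and MYBBP1A, a nucleolar protein that associates with polymerase I, by 0.70 (SE 0.055, adjusted p = 8.06e-07). TCOF1, known as treacle and as a partner of UBTF, fell from 12103, 12896 and 12903 with DMSO to 7701, 7675 and 7358, a log2 change of -0.74 (SE 0.051, adjusted p = 3.19e-07). SIRT7, a deacetylase that associates with polymerase I, fell, with a log2 change of -0.48 (SE 0.068, adjusted p = 8.93e-05). TCOF1 was thus lower, and UBTF higher, in every treated library. With scaling to equal totals 6 rose and 5 fell, and the median was 0.058.

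Of 17 factors that process, cap, bind or export polymerase III transcripts, 12 rose, 2 fell and 3 did not pass, with a median log2 change of 0.37. These are 70.6% higher and 11.8% lower, against 33.1% and 33.2% of all tested genes, and the list was not tested as a set. MEPCE, which caps 7SK RNA, rose by 1.07 on the log2 scale (SE 0.084, adjusted p = 8.19e-07), and RPL11, a ribosomal protein that binds 5S RNA, by 1.09 (SE 0.088, adjusted p = 1.04e-06). XPOT, the exporter of transfer RNAs, had 29845, 38229 and 32762 with DMSO and 17480.0, 17218 and 16534 with BEZ235, a log2 change of -0.97 (SE 0.080, adjusted p = 1.13e-06). RPP38, a protein of the enzyme RNase P, fell, with a log2 change of -0.21 (SE 0.061, adjusted p = 0.011). With scaling to equal totals 9 rose and 4 fell.

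The RNAs that the 2 enzymes make were seen only in part, and the sources used here do not say how RNA was selected for sequencing. Of 24 polymerase III transcripts looked for, 17 had a row and 7 had enough counts to be tested. RN7SK stood at 2240.4, 269.6 and 325 in DMSO replicates 1 to 3 and 271, 264 and 348 with BEZ235, and RN7SL1, the RNA of the signal recognition particle, at 8611, 1723 and 1385 with DMSO and 1781, 890.5 and 2436 with BEZ235. DMSO replicate 1 was several times above the other controls in both, and in RPPH1 (946, 46.5 and 37.6 with DMSO) and RMRP (850.1, 62.0 and 57.6 with DMSO). The log2 changes of RN7SK and RN7SL1 were -0.99 (adjusted p = 0.176) and -0.80 (adjusted p = 0.242) with all libraries and -0.021 and 0.023 without that replicate. RN7SK passed as lower with edgeR on the recovered reads, at -1.67 (adjusted p = 0.0476), and in limma without DMSO replicate 2, at -1.55 (adjusted p = 0.0224), both of which keep DMSO replicate 1. RPPH1 was at -0.63 with all libraries and 0.86 without it (adjusted p = 0.0755), and RMRP at -0.76 and 0.51 (adjusted p = 0.227). RN7SL2 was at -0.61 with all libraries and 0.32 without it (adjusted p = 0.416). For RN7SL1, RN7SL2, RPPH1 and RMRP the direction reversed with this 1 library left out.

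BCYRN1, a neuronal RNA made by polymerase III that is also found in tumours, was the only one of the 7 tested polymerase III transcripts to pass limma with all libraries. It had 1393, 1283 and 1307 with DMSO and 935, 791 and 796 with BEZ235, a log2 change of -0.66 (SE 0.090, adjusted p = 6.37e-05), and without DMSO replicate 1 the change was -0.63. RNY4, VTRNA1-2, VTRNA1-3, VTRNA2-1 and RNA5S9 were at 0 in all 6 libraries, which allows up to 3 reads in each. The ribosomal RNA precursor and its products were counted in 2 rows that carry several gene copies each, and neither passed: the log2 changes were -0.24 (adjusted p = 0.36) and -0.22 (adjusted p = 0.392) with all libraries and 0.012 and 0.0051 without DMSO replicate 1. With quantile normalization the first of these rows passed as lower, at -0.73 (adjusted p = 0.000269), and the other showed no change. That setting gives values of the same rank the same level in every library. For rows at the top of the ranks it therefore cannot measure a change in amount, and no conclusion is drawn from this call.

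**Figure D4:**
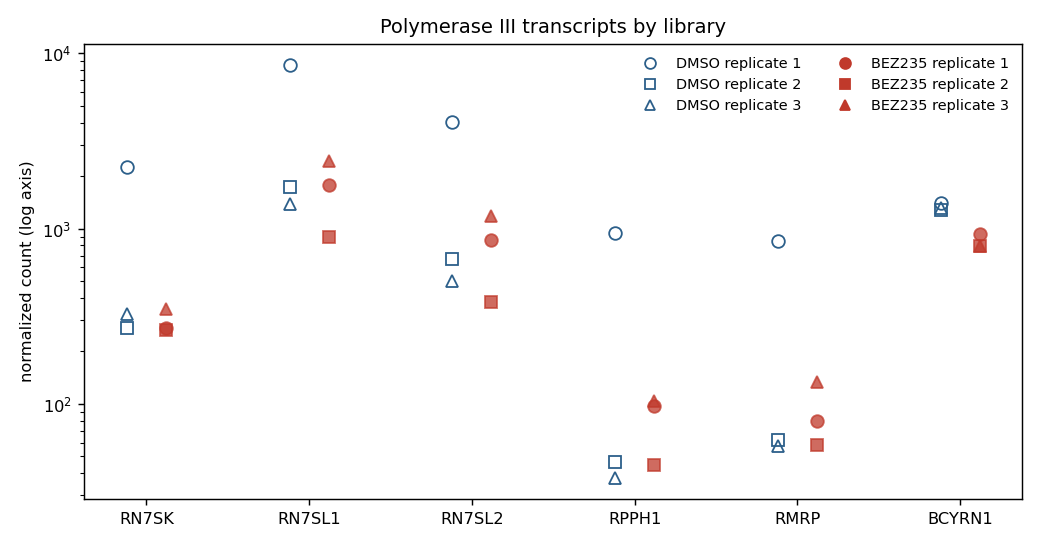
Normalized counts (log axis) of 6 polymerase III transcripts in each library; open symbols are DMSO, filled symbols BEZ235, and the symbol's shape gives the replicate number. DMSO replicate 1 (open circles) lies above every other library for RN7SK, RN7SL1, RN7SL2, RPPH1 and RMRP, and only BCYRN1 separates the groups.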

How the data were processed

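RNA sequencing libraries of TC-71 cells, 3 given BEZ235 and 3 given DMSO, were compared. The values deposited by the authors are a signal, normalized read counts of each gene in each library. The submitters' processing notes list STAR 2.4.0, DESeq, SAMtools, Picard, FastQC and the build hg38 without saying what each did, and per the file headers the rows are FASTDB genes. The sources used here do not state the counting rule, the strand setting or the RNA selection, so overlapping rows, antisense genes and near-identical copies may share reads. Each deposited column was made of whole multiples of 1 step (100.0% of values within 0.01), which gave the reads per library, and a depth at which 3 reads are 2.50 to 3.47 normalized counts. The libraries carry no molecular identifiers, so this limit covers only the error of counting reads.

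Genes with at least 10 normalized counts in at least 3 libraries (23923, all 36 members among them) were tested with limma 3.58.1 (R 4.3.3) with a mean-variance trend on log2(normalized count + 1), two-sided, with Benjamini-Hochberg adjustment over all of them and a threshold of 0.05. Fold changes are on this scale. The labels call the samples biological replicates and do not say whether they came from separate cultures, so a p-value measures the spread between these samples, which may be partly technical. Exon lengths are the merged exons of GENCODE v29, and promoters are from RefSeq. The scripts were tested on simulated data. Alternatives were TMM, quantile and total-count scaling, pseudocounts of 0.5 and 10, a minimum of 50 normalized counts or none, limma with no trend, a block for the replicate number, each library left out in turn, and edgeR 4.0.16 and DESeq2 1.42.0 on the recovered reads.

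The members, the lists of related genes and the cell type markers were chosen with earlier results of these data known. Every member is named; values per library are given for POLR1A, POLR1B, RRN3, UBTF, POLR3A, POLR3B, POLR3G, POLR3GL, MAF1, BRF1, BRF2, BDP1 and GTF3A, for the 3 largest rises and falls in each enzyme, and for some others. From each related list the genes with the smallest adjusted p, up to 2 in each direction, are named. The ratio of BRF1 to BRF2 and the neighbouring rows were added after values were seen. 1 leukocyte marker is not reported here.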

Additional observations from a re-analysis of the deposited data

How the results depend on the processing

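Over the alternatives 14285 to 16102 genes passed and 23 (total-count scaling) to 29 (quantile normalization) of the 36 members, 24 to 27 with 1 library left out. The median log2 change of polymerase I members was 0.24 with total-count scaling and 0.21 to 0.46 with 1 library left out. That of polymerase III members was 0.24 with quantile normalization and 0.090 with total-count scaling. edgeR called 15744 genes and DESeq2 15706, and both called 27 members. Same-numbered libraries of the 2 groups did not deviate together (correlations of -0.038, 0.023 and 0.044), and differently numbered ones gave -0.097 to 0.072. No shared deviation was thus seen, but these values cannot show whether same-numbered samples were handled together. With the replicate number as a block 15917 genes and 26 members passed, and the POLR3G to POLR3GL difference of -0.91 had an exact p of 0.25, the smallest that 3 pairs allow; it was -0.93 to -0.87 with 1 library left out. POLR1H passed with TMM scaling, quantile normalization, the filter at 50, edgeR, DESeq2 and without BEZ235 replicate 3 (adjusted p = 0.00352 to 0.0493), and TAF1B and TAF1C with quantile normalization. Of the members that did not pass, POLR1H and TAF1C kept their sign, and the others changed sign close to 0. With quantile normalization RRN3 was at 0.012, POLR3E at 0.0096 and POLR3F at 0.037. With total-count scaling TAF1B was at -0.0014, CRCP at -0.089, MAF1 at -0.066, BRF2 at -0.062 and GTF3A at -0.059. With 1 library left out RRN3 ranged from -0.077 to 0.0066, POLR3E from -0.056 to 0.0097, POLR3F from -0.098 to 0.023, CRCP from -0.085 to 0.11, MAF1 from -0.036 to 0.11 and GTF3A from -0.0067 to 0.072. The cause of these changes was not tested. No called member changed sign under any of these alternatives.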
